A study of Mus musculus with 6 samples.

Results

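The genes described are those for the proteins of the cytosolic ribosome, measured in rhombomere 4 of Hoxb1 mutant and wild-type mouse embryos. Members were chosen by name. A probe set belonged where the array annotation gave it a single gene symbol that begins with Rpl or Rps followed by a digit, or that reads Rplp0, Rplp1, Rplp2 or Rpsa. S6 kinases, symbols marked as pseudogenes, and the paralogs Rpl7l1 and Rpl22l1 were left out. The rule found 97 probe sets of 46 genes, among 22626 probe sets tested and 12393 genes that had a single-symbol probe set. By symbol, 22 of the 46 genes belong to the small (40S) subunit, on 54 probe sets, and 24 to the large (60S) subunit, on 43. The 22 include Rps4l, which the RefSeq gene table classes as a transcribed pseudogene.

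The study compared 3 wild-type with 3 Hoxb1 mutant samples at E10.5, on Affymetrix mouse 430A arrays. Each sample was a pool of segments from several embryos, and the submitters call the samples independent biological replicates. The dissection took in chiefly rhombomere 4, with some of the adjoining branchial arches. The sources used here do not give the mutant allele, the strain or the number of embryos per pool.

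Cytosolic ribosomal proteins are made in nearly every cell in amounts matched to one another, since each ribosome holds a single copy of most of them. Their mRNAs are among the most abundant in growing cells, and many begin with a run of pyrimidines, the 5′ terminal oligopyrimidine (TOP) motif, through which mTORC1 controls their translation. In mice and humans, loss of 1 copy of several of these genes gives tissue-specific defects, which include anaemia, pigment changes and skeletal patterning defects; mutation of Rpl38 alters the axial skeleton and the translation of some Hox mRNAs.

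No ribosomal protein gene passed the test between mutant and wild-type tissue. Of the 97 probe sets, 0 reached an adjusted p under 0.05 in either direction (limma, Benjamini-Hochberg), and the background over all probe sets was 0.0% in each direction. The lowest adjusted p among members was 0.833. At an unadjusted p under 0.05, 1 member probe set was higher in the mutants and 0 were lower, where 1.88% of all probe sets were higher and 3.88% lower. In 4 member probe sets every mutant array lay above every wild-type array, against a background of 4.88%, and in 1 every mutant array lay below, against 7.08%. The shares of the members, 4.12% and 1.03%, were thus not above the background. Among the brightest 10% of probe sets the shares were 10.2% and 5.17%. Counted by gene, 3 of 46 (6.52%) were apart on the higher side, against 5.02% of all genes, and 1 of 46 (2.17%) on the lower, against 7.30%. Among the brightest 10% of genes these shares were 10.6% and 5.49%.

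The differences were small and leaned slightly upward. The median log2 difference, mutant minus wild type in units of log2(intensity + 16), was 0.04 over the 46 genes, each represented by its brightest probe set. It was -0.02 over all genes and 0.04 over the brightest 10% of genes. By sign alone, 35 of 46 genes (76.1%) and 68 of 97 probe sets (70.1%) were higher in the mutants. The background for the sign was 45.8% of all probe sets and 64.1% of the brightest 10% of them, so a lean was also present among bright probe sets in general. Scaling moved the count of higher genes from 35 of 46 to 29 with quantile normalization and to 40 with arrays centred on their medians. The 40S genes had a median of 0.04 with 19 of 22 higher, and the 60S genes a median of 0.03 with 16 of 24 higher. No difference between the subunits was tested.

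**Figure D1:**
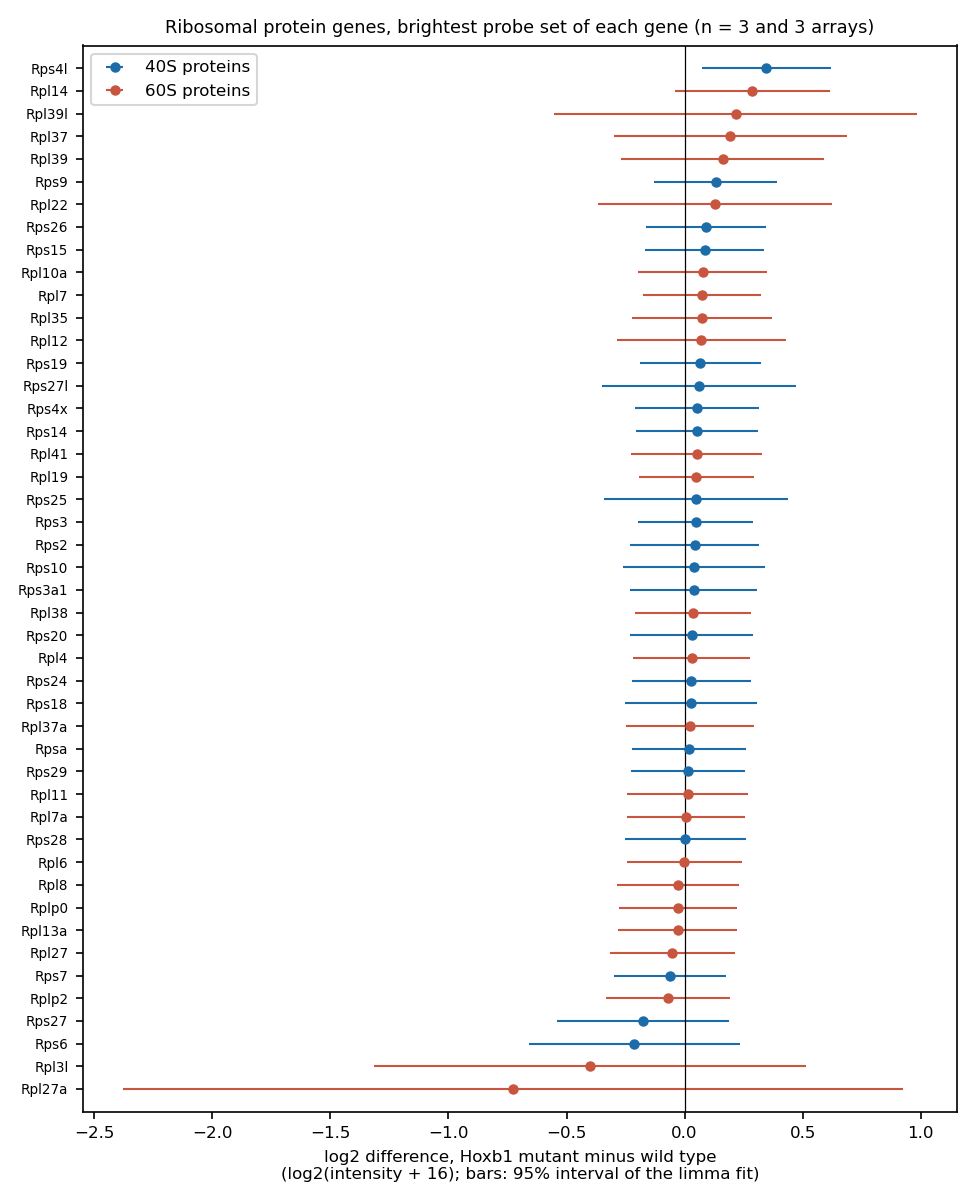
Log2 difference (mutant minus wild type) of the brightest probe set of each of the 46 ribosomal protein genes, with the 95% interval of the limma fit, from 3 arrays per group; blue points are 40S genes and red points 60S genes. Most points lie within 0.1 of 0, the interval of Rps4l alone lies wholly above 0, and those of Rpl27a and Rpl3l are the widest.

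The errors of these differences were small. The difference lay within 0.1 of 0 on the log2 scale in 35 of 46 member genes (76.1%), in 40.1% of all genes and in 55.4% of the brightest 10% of genes. The 95% interval of the difference stayed within a 1.5-fold change in either direction for 37 of 46 genes, or 80.4%, where 58.8% of all genes did so. It stayed within a 2-fold change for 44 of 46, all but Rpl27a and Rpl3l. The median standard error of a member gene's log2 difference was 0.11, against 0.12 over the brightest 10% of genes and 0.16 over all genes. These intervals rest on 3 samples per group and on a spread that limma draws toward a value common to all probe sets. The median intensity over the 46 genes was 10944 to 12152 on the single arrays, where the highest intensity of an array was 16868 to 19024. Whether differences and spread are narrowed so near the top of the scale was not tested. In whole tissue, fewer cells of a type and less RNA per cell cannot be told apart.

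Ribosomal protein probe sets sat at the bright end of the array. By mean intensity over the 6 arrays, 56 of 97 were among the brightest 1% of probe sets tested and 70 of 97 among the brightest 10%. Intensities of different probe sets depend on their probes, and are not compared here as transcript levels. Against the bacterial control probe sets, whose 95th percentile was 61.5, 88 of 97 members were above background on all 6 arrays and 7 were below it on all. Among the genes, Rpl3l and Rpl39l were the only 2 whose brightest probe set was not above background on any array. Of the member probe sets, 40 (41.2%) carry the suffix that the manufacturer gives to sets with probes shared between sequences (_x_at), against 6.68% of all probe sets and 17.5% of the brightest 10%. Signal from near-identical copies cannot be separated in those.

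**Figure D2:**
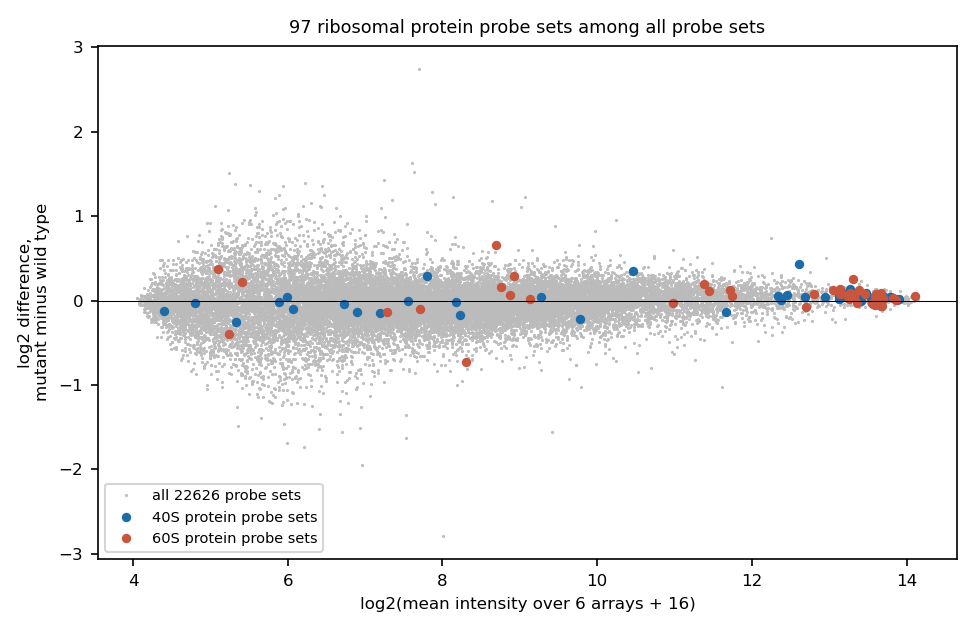
Log2 difference (mutant minus wild type, vertical axis) against log2 of the mean intensity over 6 arrays plus 16 (horizontal axis) for 22626 probe sets in grey and for the 97 ribosomal protein probe sets in blue (40S) and red (60S). Most members crowd at the bright end close to 0, and the points farthest from 0 belong to Rpl27a, below it, and to Rpl37a, above it.

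The sequence around the annotated transcription start was searched for short motifs. RefSeq promoters (GRCm38.p6) were matched by symbol for 40 of the 46 genes, with 48 start sites. A run of at least 8 bases that are only C or T covered the annotated start base in 12 of 40 genes (30.0%), against 4.59% of all genes with a promoter in the table. Shorter runs, and runs at a start other than the annotated base, were not counted. Genes without such a run are therefore not shown to lack a TOP motif. The following 30-base windows run from 15 bases before to 15 bases from the start base on, and capitals mark the pyrimidine run where it covers the start. The first 6 are shown because the values of these genes are described below, and Rps4x and Rps7 because they hold no such run.

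Rpl38, chr11:114668565-114668594, plus strand: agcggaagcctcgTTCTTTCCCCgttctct
Rplp2, chr7:141447636-141447665, plus strand: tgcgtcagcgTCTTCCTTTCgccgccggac
Rpl14, chr9:120571502-120571531, plus strand: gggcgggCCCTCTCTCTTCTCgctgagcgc
Rps6, chr4:86857353-86857382, minus strand: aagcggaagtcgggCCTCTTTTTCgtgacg
Rps10, chr17:27635230-27635259, minus strand: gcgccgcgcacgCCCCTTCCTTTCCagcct
Rps27, chr3:90213634-90213663, minus strand: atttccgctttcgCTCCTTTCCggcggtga
Rps4x, chrX:102189377-102189406, minus strand: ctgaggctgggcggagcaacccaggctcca
Rps7, chr12:28635939-28635968, minus strand: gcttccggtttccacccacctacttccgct

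A C/T run of that length anywhere within 25 bases of the start was found in 22 of 40 member genes (55.0%), against 22.3% of all genes. The complementary kind of run, only A or G, was found in that window in 5.0% of member genes and 24.4% of all genes. The letters CCGGAA, the core of the site bound by ETS-family factors such as GABP, occurred on either strand of the 300-base promoter in 27 of 40 member genes (67.5%), against 16.7% of all genes and 26.1% of the genes measured here. TATAAA in the window from 40 bases before to 25 bases after the start was found in 5.0% of member genes and 3.27% of all genes. These are matches to letters and not shown to be bound. The 12 genes with a run over the start had a median log2 difference of 0.03 and the 28 without one a median of 0.05, a description with no test.

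Among the small-subunit proteins, Rps4l gave the largest difference. Its sequence resembles Rps4x, the X-linked gene of the S4 protein, and it is the member classed as a pseudogene. Its intensities were 1149, 1219 and 1328 on the wild-type arrays and 1618, 1470 and 1620 on the mutant arrays. Every mutant array was above every wild-type array. The log2 difference was 0.35 (SE 0.12, 95% interval 0.07 to 0.62), with an unadjusted p of 0.0206 and an adjusted p of 0.833 (limma, Benjamini-Hochberg). It was the single member with an unadjusted p under 0.05. The count of such members on the higher side was 0 without wild-type replicate 1, wild-type replicate 2 or mutant replicate 3, became 2 without mutant replicate 1, and 3 without mutant replicate 2. On leaving out each array, 1.75% to 2.21% of all probe sets were higher at that threshold. Rps4x itself, the protein-coding gene, had intensities of 13985, 12301 and 12893 on the wild-type arrays and 12947, 13893 and 13768 on the mutant arrays, and its groups overlapped with a difference of 0.05 (SE 0.11).

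Rps26, Rps9 and Rps15 were the protein-coding 40S genes of smallest p on the higher side. Rps26 lies at the mRNA exit channel, and its loss of a copy is a cause of Diamond-Blackfan anaemia. Its intensities were 11571, 10294 and 11194 on the wild-type arrays and 11687, 11792 and 11725 on the mutant arrays. The groups did not overlap, though the gap was narrow, and the difference was 0.09 (SE 0.11, adjusted p = 0.903 by limma). Rps9 had intensities of 9150, 9311 and 9620 on the wild-type arrays and 9479, 10683 and 10629 on the mutant arrays, with a difference of 0.13 (SE 0.11). Its mutant replicate 1 lay within the wild-type range, and another of its probe sets differed by -0.14, so its probe sets disagree in sign. Rps15 differed by 0.08 (SE 0.11), with overlapping groups.

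Rps7 was the only member whose mutant arrays all lay below the wild-type arrays. Its protein is needed for 18S rRNA maturation and can bind Mdm2. Its intensities were 13414, 13279 and 13139 on the wild-type arrays and 12919, 12725 and 12533 on the mutant arrays. The separation was complete but small, a log2 difference of -0.06 (SE 0.10, adjusted p = 0.937 by limma). Its log2 SD was 0.015 in wild type and 0.022 in mutants, so the SE came mostly from the spread that limma shares over all probe sets. The other single-symbol probe set of Rps7 differed by 0.05, and a probe set that the annotation also lists with another symbol by 0.07, so the direction was not shared within the gene.

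Rps6, the substrate of S6 kinase, and Rps27 had the lowest values among the 40S genes. Rps6 gave 993, 839 and 934 on the wild-type arrays and 606, 958 and 851 on the mutant arrays on its brightest single-symbol probe set. Mutant replicate 1 was low and the other mutant arrays lay within the wild-type range, for a difference of -0.21 (SE 0.19). Rps6 is also listed on 9 probe sets together with other symbols, of which 8 were higher in mutants, with differences from -0.01 to 0.22. The single-symbol probe set of Rps27 gave 365, 259 and 285 on the wild-type arrays and 287, 251 and 254 on the mutant arrays, a difference of -0.18 (SE 0.15), and wild-type replicate 1 was the highest array. Its further probe set, shared with another symbol, gave 10851, 11490 and 9851 on the wild-type arrays and 10650, 11740 and 11613 on the mutant arrays, a difference of 0.08. The probe sets of each gene thus disagreed in sign, and for Rps27 the brighter of its 2 was the higher in mutants.

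**Figure D3:**
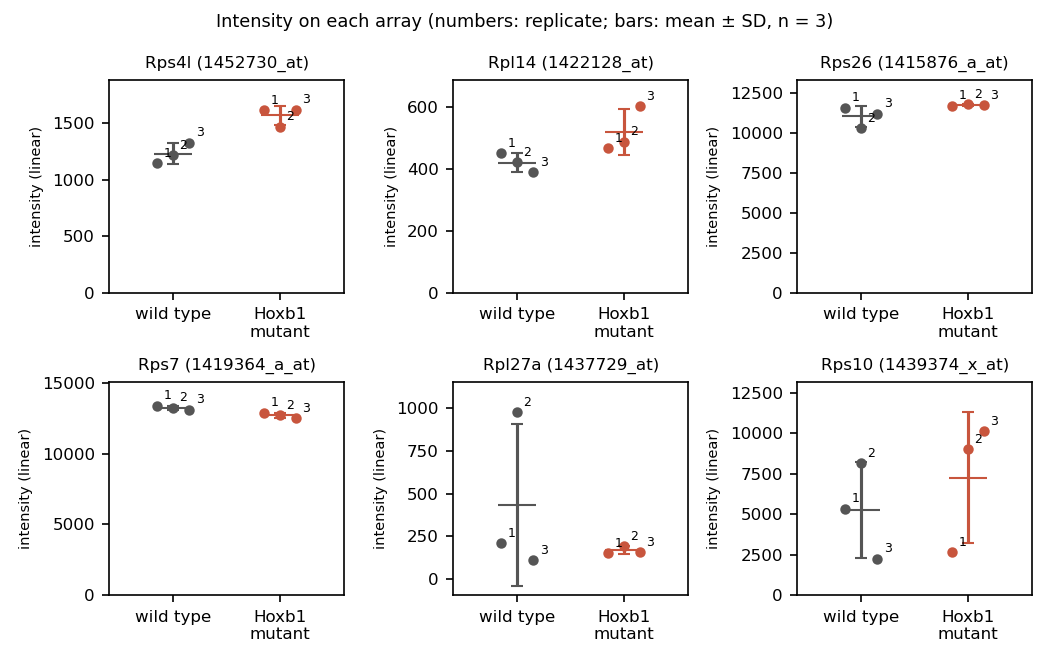
Intensity on a linear scale on each of the 6 arrays for 6 ribosomal protein probe sets, with the replicate number beside each point and bars for the mean ± SD (n = 3). The groups are apart for Rps4l, Rpl14, Rps26 and Rps7, by little for the last pair, while Rpl27a and Rps10 spread widely within a group.

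The probe sets of Rps10 show how far a single probe set can stray. Rps10 is a 40S head protein and a Diamond-Blackfan anaemia gene. Probe set 1439374_x_at gave 5346, 8152 and 2249 on the wild-type arrays and 2633, 9005 and 10116 on the mutant arrays. The difference was 0.43 with a standard error of 0.64, and wild-type replicate 3 and mutant replicate 1 were the low arrays. The other 5 probe sets of Rps10 differed by -0.15 to 0.06. The brightest of them gave 11981, 10840 and 13418 on the wild-type arrays and 11742, 12192 and 13222 on the mutant arrays, a difference of 0.04.

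The remaining 40S genes overlapped between groups. Rps19, the gene most often mutated in Diamond-Blackfan anaemia, gave 8778, 8704 and 9344 on the wild-type arrays and 8913, 9293 and 9914 on the mutant arrays, a difference of 0.07 (SE 0.11). Rpsa, which is also known as the laminin receptor precursor, differed by 0.02, with mutant arrays between 13234 and 13403 inside the wild-type range of 12666 to 13569. Rps27l, a paralog of Rps27 that p53 can induce, ranged from 4962 to 5984 in wild type and from 4516 to 6575 in mutants, with a difference of 0.06 (SE 0.17). Of the others, Rps20 and Rps24 differed by 0.03, Rps29 by 0.02, Rps28 by 0.00, and Rps2, Rps3, Rps3a1, Rps14, Rps18 and Rps25 by 0.03 to 0.05.

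Among the large-subunit proteins, Rpl14 had the smallest p. Its only single-symbol probe set gave 449, 420 and 390 on the wild-type arrays and 465, 487 and 602 on the mutant arrays. Every mutant array lay above every wild-type array, with mutant replicate 3 highest. The difference was 0.29 (SE 0.14, 95% interval -0.04 to 0.62), with an unadjusted p of 0.0781 and an adjusted p of 0.833 (limma, Benjamini-Hochberg). Rpl14 is listed with a further symbol on 5 probe sets, and all 5 were higher in mutants, by 0.06 to 0.25, though the groups overlapped on each. Probe sets of a gene measure the same RNA samples and are not replicates, and none passed the test.

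Rpl41 encodes the shortest ribosomal protein. Its probe set 1422623_x_at gave 9019, 9276 and 9361 on the wild-type arrays and 10086, 10231 and 12863 on the mutant arrays. The groups did not overlap, and the difference was 0.25 (SE 0.13, adjusted p = 0.833 by limma). Its brightest probe set gave 17304, 15936 and 19024 on the wild-type arrays and 18517, 17333 and 18194 on the mutant arrays, where the groups overlapped with a difference of 0.05. The other pair of Rpl41 probe sets differed by 0.02 and -0.09, so the difference of the first was not seen on the rest.

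Rpl27a, whose mutation in mice gives the sooty foot ataxia phenotype, had the lowest log2 difference and the least certain. Its probe set 1437729_at gave 209, 977 and 112 on the wild-type arrays and 154, 195 and 160 on the mutant arrays. Wild-type replicate 2 stood far above the other arrays. The difference of -0.73 had a standard error of 0.69 and became 0.12 without that array. A brighter probe set that lists Rpl27a among 5 symbols gave 12258, 11493 and 11762 on the wild-type arrays and 12111, 13200 and 13839 on the mutant arrays, a difference of 0.14. No change of Rpl27a was detectable at this precision.

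Proteins of the ribosomal stalk, which recruits elongation factors, showed no shift beyond their error. Rplp0, the stalk base to which the acidic proteins bind, gave 12322, 11578 and 12419 on the wild-type arrays and 12174, 11457 and 11976 on the mutant arrays, a difference of -0.03 (SE 0.10). Rplp2 gave 12833, 13712 and 13911 on the wild-type arrays and 12037, 12912 and 13617 on the mutant arrays, a difference of -0.07 (SE 0.11). Rpl12, which sits beside them, differed by 0.07 (SE 0.15), with wild-type arrays from 380 to 531 and mutant arrays from 435 to 487. In all 3 genes the groups overlapped. Rplp1, read only with another symbol, differed by -0.03.

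Rpl11 forms with Rpl5 and the 5S rRNA the particle that binds Mdm2 when ribosome assembly is disturbed. Rpl11 gave 9448, 9611 and 10214 on the wild-type arrays and 10378, 9440 and 9734 on the mutant arrays, a difference of 0.01 (SE 0.11) with overlapping groups. Rpl5 was listed only beside another symbol, on 3 probe sets that differed by 0.00 to 0.23. Rpl38 gave 15047, 14151 and 13929 on the wild-type arrays and 14875, 14616 and 14659 on the mutant arrays. Its mutant arrays lay inside the wild-type range, and the difference was 0.03 (SE 0.10, 95% interval -0.21 to 0.28). The interval of Rpl38 stayed within a 1.5-fold change.

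Several 60S genes varied more between replicates than between groups. Rpl37 gave 2625, 3054 and 1837 on the wild-type arrays and 2487, 3125 and 2842 on the mutant arrays, a difference of 0.19 (SE 0.21). On 3 probe sets shared with another symbol Rpl37 differed by -0.14 to 0.08, and on the brightest of these by -0.07. Rpl22, an RNA-binding protein that the ribosome can lose without ceasing to translate and that T cell development requires, gave 9282, 9321 and 5808 on the wild-type arrays and 8071, 9451 and 8597 on the mutant arrays. Its difference was 0.13 (SE 0.21). In both genes wild-type replicate 3 was the lowest array and mutant replicate 1 the next. Rpl39, a protein of the exit tunnel, gave 327, 487 and 364 on the wild-type arrays and 503, 410 and 398 on the mutant arrays, a difference of 0.16 (SE 0.18) with overlapping groups. A brighter Rpl39 probe set, shared with another symbol, differed by 0.01.

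The paralogs made mainly in other tissues were not well above background. Rpl3l, the striated-muscle form of Rpl3, ranged from 12.9 to 34.5 in wild type and from 6.54 to 38.5 in mutants. Rpl39l, the male germ-cell form of Rpl39, ranged from 11.2 to 30.8 in wild type and from 17.1 to 51.5 in mutants. All of these lay under the background value of 61.5, and no fold is given for them. The other 60S genes (Rpl4, Rpl6, Rpl7, Rpl7a, Rpl8, Rpl10a, Rpl13a, Rpl19, Rpl27, Rpl35 and Rpl37a) had differences from -0.05 to 0.08, and in all 11 the groups overlapped.

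Genes were also grouped by disease or mutant phenotype. Of 20 listed Diamond-Blackfan anaemia genes, 12 were measured. Their differences ran from -0.18 (Rps27) to 0.09 (Rps26), with a median of 0.02, 9 higher and 3 lower, and 0 passed the adjusted or the unadjusted threshold. Of 9 genes with developmental phenotypes in mouse mutants, 7 were measured, with a median of 0.03, 4 higher and 3 lower. Rpl24, the gene of the Belly spot and tail mutant, was read only on 2 probe sets shared with another symbol, which differed by 0.08 and 0.11.

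Probe sets of the same gene often disagreed in sign. Of the 22 member genes with several probe sets, 5 had all of them on the same side (Rpl37a, Rps14, Rps15, Rps27l and Rps28), and in 0 did probe sets of both signs reach an unadjusted p under 0.05. Counting only probe sets above background on all arrays, 18 genes had several and 6 of them had all on the same side, Rps18 being the addition.

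On single arrays the genes moved together by little. The median of log2 intensity minus each gene's mean over the 46 genes was 0.02, -0.04 and -0.01 on the wild-type arrays and 0.01, -0.00 and 0.05 on the mutant arrays. Wild-type replicate 2 was lowest and mutant replicate 3 highest, and the groups overlapped. The brightest 10% of genes gave -0.02 on wild-type replicate 2 and 0.05 on mutant replicate 3.

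**Figure D4:**
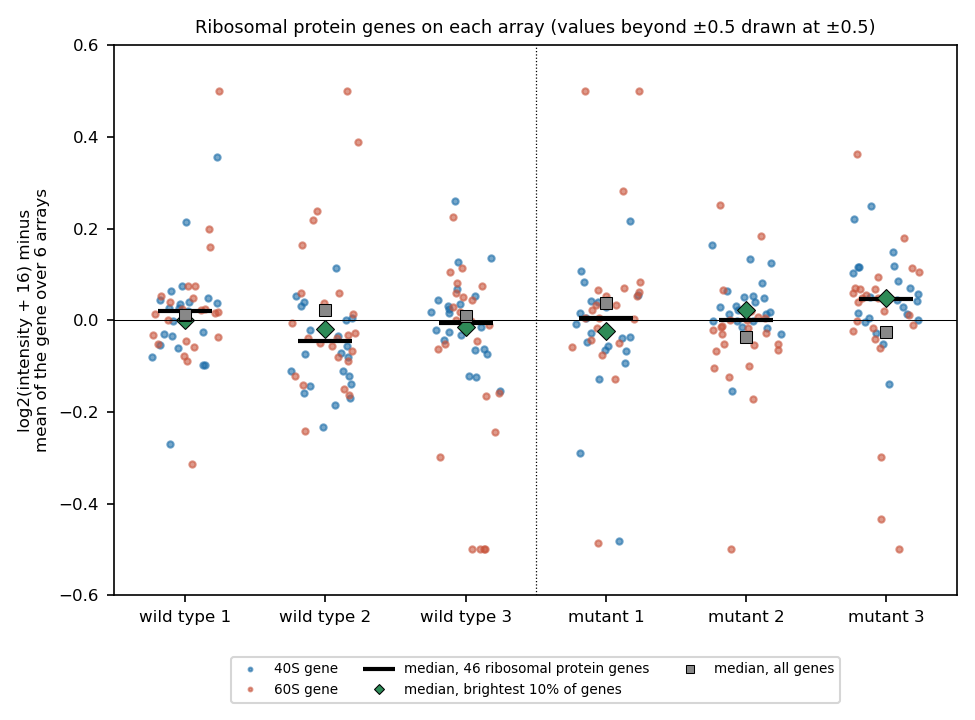
Log2(intensity + 16) minus the gene's mean over 6 arrays for each of the 46 genes (points, blue 40S and red 60S) on each array, with the median of these genes (bar), of the brightest 10% of genes (diamond) and of all genes (square). The bars run from -0.04 on wild-type replicate 2 to 0.05 on mutant replicate 3, and those of the groups overlap.

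The 2 lowest of the 6 arrays were wild-type replicate 3 and mutant replicate 1 in 18 of 97 member probe sets (18.6%), against 5.73% of all probe sets and 13.3% of the brightest 10% of probe sets, a pattern noticed after the values were seen. Counted by gene, on the brightest probe set of each, it held in 5 of 46 member genes (10.9%), against 5.87% of all genes and 12.5% of the brightest 10% of genes. Why the shares by probe set and by gene differ was not tested. Among the 102 probe sets that list a ribosomal protein gene with other symbols the pattern held in 25 (24.5%). These same arrays had the lowest array weights in limma, 0.664 and 0.501, and what part that plays was not tested.

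The upward lean of the median depended on which arrays were used. The mean log2 signal of the 18S rRNA control probe sets was 12.13 and 11.29 on wild-type replicates 2 and 3 and between 5.99 and 6.81 on the other 4 arrays. Without those replicates, the median over the 46 genes was 0.0006, with 24 genes higher, and with the 18S signal as a covariate it was -0.0015, with 22 higher. The brightest 10% of genes had a median of 0.02 in both settings. Without wild-type replicate 2 alone the median over the 46 genes was 0.009, with 27 higher, and that over the brightest 10% of genes 0.03. Without mutant replicate 3 the median over the 46 genes was 0.020, with 29 higher, and without wild-type replicate 3 it was 0.030, with 30 higher. Leaving out any other array gave a median from 0.040 to 0.048. With the arrays centred on their medians the 46 genes were at 0.09, with 40 higher, while the brightest 10% of genes was also at 0.09 and all genes were at 0.03. Among the 34 named genes, the sign turned in 9 with the 18S covariate and in 9 without both arrays of high 18S signal. Rpl22, Rpl38, Rps4x, Rps20, Rps24, Rps28 and Rpsa turned in both settings. The 18S signal was high on those wild-type arrays alone, so both settings rest chiefly on wild-type replicate 1. They make nearly the same comparison, and their likeness is not independent evidence. The sign of Rpl11, Rpl38, Rps20 and Rpsa turned with quantile normalization, and that of Rpl13a, Rpl27 and Rplp0 with centring. With the 18S covariate, quantile normalization, centring or any array left out, 0 member probe sets passed the adjusted threshold. Over all probe sets 0 to 4 did.

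**Figure D5:**
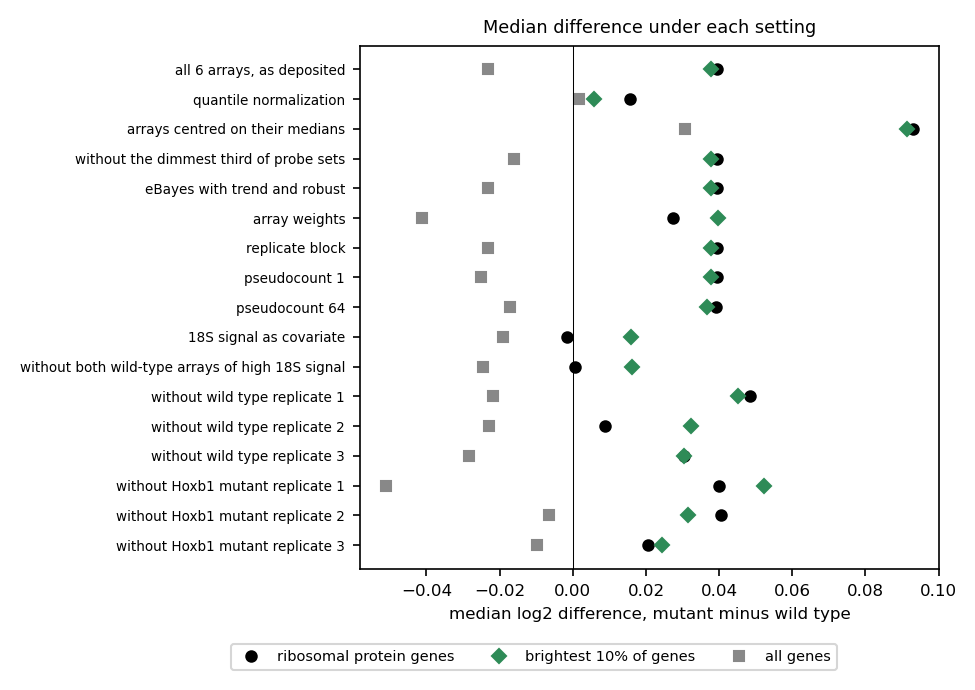
Median log2 difference (mutant minus wild type, horizontal axis) over the 46 ribosomal protein genes (circles), the brightest 10% of genes (diamonds) and all genes (squares) under each processing setting (rows). The circles run from -0.0015 with the 18S signal as a covariate to 0.09 with arrays centred on their medians.

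The probe sets outside the rule that list a ribosomal protein gene with other symbols number 102 and cover 27 further genes. In 96 of them the other symbols are all pseudogenes, predicted models or the protein-coding genes Rpl36al, Rpl37rt and Rps27rt, which are not among the 27. Their median difference was 0.04, with 71 of 102 higher, and 0 passed the adjusted threshold, with 1 higher and 0 lower at an unadjusted p under 0.05 (limma), against the 1.88% and 3.88% of all probe sets. The largest positive difference in this set was a probe set of Rpl15, 1434328_at, which gave 2325, 2110 and 2189 on the wild-type arrays and 2586, 3176 and 2622 on the mutant arrays. The mutant arrays all lay above the wild-type arrays, with a difference of 0.33 (SE 0.13) and an adjusted p of 0.833 (limma, Benjamini-Hochberg). The other Rpl15 probe set differed by 0.02. All 3 probe sets of Rpl36 were higher, by 0.14 to 0.24, and their groups overlapped.

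Genes that act with the ribosome were summarised from lists drawn up for this purpose. Of 71 ribosome biogenesis genes, 63 were measured, with a median of 0.08, 46 higher and 17 lower. Wdr75, a factor of early pre-rRNA processing, differed by 0.31, and Ubtf, the RNA polymerase I transcription factor UBF, by -0.27. The 74 mitochondrial ribosomal protein genes had a median of 0.08 as well, with 51 higher and 23 lower. The 18 other measured TOP mRNAs, which encode translation factors and related proteins, had a median of 0.01, with 10 higher and 8 lower.

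Regulators of ribosomal protein synthesis and of its surveillance were taken from further lists. The 14 measured Myc and mTORC1 genes had a median of -0.04, with 4 higher and 10 lower. The 11 measured p53 response genes, which can rise when ribosome assembly fails, had a median of -0.09, with 4 higher and 7 lower. The 13 measured proliferation genes had a median of 0.11, with 10 higher and 3 lower. With arrays centred on their medians, the Myc and mTORC1, p53 response and proliferation lists stood at 0.02, -0.04 and 0.17. Ribosome biogenesis, mitochondrial ribosomal protein and other TOP genes then stood at 0.13, 0.13 and 0.06. With the 18S signal as a covariate the p53 response list stood at -0.16 and the proliferation list at 0.08. In these 6 lists 0 genes passed the adjusted threshold (limma). At an unadjusted p under 0.05, ribosome biogenesis had 1 gene higher and 1 lower, mitochondrial ribosomal proteins 3 and 1, Myc and mTORC1 genes 0 and 1, and the other lists 0. Over all genes 1.70% were higher and 3.76% lower at that threshold.

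The targeted gene and the tissue were checked on the same arrays. Hoxb1 gave 341, 378 and 588 on the wild-type arrays and 60.8, 35.3 and 50.0 on the mutant arrays, where all 3 arrays lay below the background value of 61.5 (adjusted p = 0.0695 by limma). Of the hindbrain neural tube markers, 8 of 9 were measured and all 8 were above background on every array. Their summed intensity ranged from 8839 to 10378 in wild type and from 7561 to 8192 in mutants, with 7 of 8 lower in mutants. Hoxa2 and Hoxb2 are among these markers, and their part in the lower sum was not tested. Of the arch mesenchyme markers 7 of 8 were lower as well, of the endothelial markers 4 of 4 and of the macrophage markers 3 of 3. Of the erythroid markers 1 of 5 was lower and of the epithelial markers 1 of 4. Over all genes 54.5% were lower. Markers of branchial arch mesenchyme summed to 10029 to 11597 in wild type and 8973 to 10031 in mutants, and erythroid markers to 33423 to 38724 and 36871 to 40959. The part of these shifts in the ribosomal protein values was not tested.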

How the data were processed

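For each array the authors deposited a linear intensity per probe set; its mean over the array with 2% trimmed at each end was 500.0 on all 6 arrays. The submitters' processing notes name affy, with no version. The sources used here do not say how probes were summarised or background removed. Probe sets were named from the platform annotation, which can be old. The 64 control probe sets were left out. Intensities were used as deposited, as log2(intensity + 16), and groups were compared over all 22626 probe sets with limma 3.58.1 in R 4.3.3 (lmFit, eBayes without trend, 2-sided, Benjamini-Hochberg, threshold 0.05). The step was tested on simulated data. P-values, standard errors and intervals rest on the spread between the 3 arrays of a group, which limma draws toward a spread common to all probe sets. For the least variable members that common spread makes up most of the error. The number of arrays limits the precision. Background was the 95th percentile of 27 bacterial control probe sets.

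Genes were described by their brightest probe set. Those named were Hoxb1, the 8 member genes of smallest p in each direction, the 5 brightest and 5 dimmest, the measured genes of the stalk, 5S particle, anaemia, mouse mutant and paralog groups, Rpsa, Rps4x, and from the ribosome biogenesis list the gene of smallest p in each direction. Further probe sets of these genes, probe sets with several symbols, Rps10 1439374_x_at and Rpl41 1422623_x_at were chosen after their values were seen. The members and lists were chosen with earlier results of these data known. The rule's clause on symbols ending in l and a digit was read as marking paralogs, since read to the letter it removes Rpl4, Rpl6, Rpl7 and Rpl8.

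Alternatives covered normalization, centring, filtering, eBayes settings, array weights, pseudocounts of 1 and 64, a replicate block, the 18S signal, probe set types, symbol forms and leaving out each array. A literal reading of the rule, only members above background, and members together with probe sets of several symbols were added after seeing the data. Of 87 protein-coding genes of this rule in the RefSeq table, 45 had a single-symbol probe set, and 15 were counted on neither kind of probe set. Of these 15, Rpl36al, Rpl37rt and Rps27rt do appear beside another symbol, on probe sets among the 102, and the rest were not analysed here. The count goes by symbol alone, so it takes in names such as Rps19bp1 and Rps23rg1. Promoters were read from RefSeq (GRCm38.p6) with Python 3.11.15.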

Additional observations from a re-analysis of the deposited data

How the results depend on the processing

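The count of member probe sets past the adjusted threshold was 0 in the main analysis and under all 22 alternatives. The median log2 difference over all members, 40S and 60S genes was 0.093, 0.095 and 0.086 with arrays centred on their medians, -0.0015, 0.0097 and -0.0040 with the 18S signal as a covariate, and 0.00057, 0.010 and -0.0043 without both wild-type arrays of high 18S signal. Leaving out each array gave 0.0087 to 0.048 over all members, 0.018 to 0.058 over 40S genes and 0.0028 to 0.047 over 60S genes. The count at an unadjusted p under 0.05 on the higher side was 1 as reported, against 1.88% of all probe sets. It became 2 with trend and robust eBayes, against 2.38%. It was 0 with the strict symbol form (which leaves out Rps4l) and 2 with probe sets of several symbols. On leaving out each array it was 0 to 3, against 1.75% to 2.21%. The count on the lower side was 0 as reported, against 3.88% of all probe sets. It became 1 with array weights, against 6.40%, and 1 with the 18S covariate, against 2.22%. It was 1 under the literal rule, and 0 to 1 on leaving out each array, against 2.88% to 6.51%. The causes were not tested.

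Same-numbered samples showed correlations of their deviations of 0.053, -0.017 and 0.045, so the numbers were not taken to pair them. With the replicate block the median over member genes was 0.04, and 0 members and 0 of all probe sets were called. Of 34 named member genes, 12 kept their sign under each of the 16 alternatives run for single genes (15 for Rpl3l, which is not above background and left the filtered fit): Rpl14, Rpl39, Rpl3l, Rpl7, Rps15, Rps19, Rps26, Rps27, Rps4l, Rps6, Rps7 and Rps9. Rps29 turned in none but stood at 0 with quantile normalization. The adjusted p of the 34 genes ranged from 0.517 to 1.0 (limma). The number of arrays, 3 per group, limits the precision, and differences within the intervals given would not be seen.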
